A study of Mus musculus with 65 samples.

Results

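Gfap, the gene of glial fibrillary acidic protein, was followed through microglial depletion, repopulation and systemic lipopolysaccharide (LPS) in RNA-seq libraries of 65 mouse retinas. It was found by its symbol (ENSMUSG00000020932) in the table of read counts, 1 gene of 50686. It was chosen by its measured level, which was higher in depleted than in control retinas in earlier results of these data, so every difference between Gfap and the control diet group is given as a description, with no test.

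The mice were adult C57BL/6J. CD mice (n = 5) ate the AIN-76A control diet. DEP2, DEP5, DEP7, DEP10, DEP14 and DEP21 mice (3 in DEP5, 4 in each of the others) ate the same diet with PLX5622, an inhibitor of the colony stimulating factor 1 receptor on which microglia depend, for the number of days in the name. REPOP3, REPOP5, REPOP7, REPOP10, REPOP14, REPOP21 and REPOP60 mice (6 in REPOP7, 4 in each of the others) were returned from PLX5622 to the control diet for the number of days in the name. The REPOP60 mice are labelled RP2M, with the time as 2 months and no day, and were taken as the REPOP60 group of the study. One of the CD mice is labelled CD_2M, and the labels do not say what this marks (its Gfap level, 11.0 CPM, lay inside the range of the other CD mice). LPSCD mice (n = 3) received LPS on the control diet, and LPSREPOP mice (n = 4), labelled as PLX5622 with LPS, are the LPS challenged repopulated retinas of the study. The labels give neither the repopulation time of LPSREPOP mice nor the interval between LPS and sampling.

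Sample titles end in RE (39 mice) or re (26 mice), and the labels do not say what this marks. All DEP5 titles end in RE, all REPOP60, LPSCD and LPSREPOP titles end in re, and every other group holds both. The first principal component of 12347 genes carried 55.7% of the variance and separated every RE library from every re library. Gfap itself hardly moved with it: after the groups were accounted for, its re minus RE difference was 0.01 on the log2 scale. The libraries held 5106429 to 8760443 counted reads (median 7944665). Gfap had 53 to 635 reads (median 143), so the 95% counting interval reached about 27.9% on either side of the lowest value and 7.86% on either side of the highest. Levels below are CPM, the reads of a gene scaled to a common library size, unless FPKM, which also divides by transcript length, is named.

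GFAP is an intermediate filament protein of glial cells. In a healthy mouse retina it is found mainly in the astrocytes of the innermost layer, while Müller glia, which span the retina, hold little of it and make more after injury or stress, a change called reactive gliosis. Among the known inputs are cytokines of the interleukin 6 family (Lif, Cntf), which act through the shared receptor Il6st, the kinase Jak1 and the transcription factor Stat3, with Socs3 as the inhibitor that Stat3 induces. The libraries were retinal by their photoreceptor genes: 10 of them summed to 51187 ± 5092 CPM in CD (SD, n = 5). Astrocytes were represented by Pax2, a transcription factor of retinal astrocytes, at 0.759 ± 0.272 CPM in CD (SD, n = 5). In whole retina, fewer cells of a type and less RNA per cell cannot be told apart.

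Gfap lies on the minus strand of chromosome 11, from 102887336 to 102900912 in GRCm38 (GENCODE M21), with 3 annotated transcripts and 13 distinct exons. A long noncoding RNA gene on the plus strand, Gm26668, spans it with no overlapping exon and stood at 8.87 ± 1.51 CPM in CD and 9.08 ± 1.5 CPM in DEP14 (SD, n = 5 and 4). The strand setting of the counting was not given in the sources used here. Because Stat3 is a known regulator of Gfap, the RefSeq promoter window (250 bases before to 50 after the start) was searched for TTCNNNGAA, the core of STAT binding sites, which reads the same on both strands. The match, in capitals, lies across the RefSeq start of Gfap, with 2 bases before it and 7 from it on (GRCm38.p6 chr11:102897184-102897212, minus strand).
Gfap: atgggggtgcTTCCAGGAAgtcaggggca
The pattern TTCNNNGAA occurs in the windows of 2582 of 27025 genes (9.55%), so the match describes the sequence and is no evidence of binding. Of the other genes described below, Socs3 and Lrrc2 held a match in their windows, and Stat3, Serpina3n, Lcn2, Osmr, Vim, Cnn3 and Pcolce held none.

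Control retinas held Gfap at a low and even level. The 5 CD mice had 12.2, 9.73, 11.7, 11.9 and 11.0 CPM, a mean of 11.3 ± 1.0 CPM (SD). Per length the CD mean was 3.67 ± 0.667 FPKM (SD, n = 5), below the 33.1 ± 6.48 FPKM of vimentin (Vim, its filament partner in Müller glia), the 26.1 ± 3.95 FPKM of the water channel Aqp4 and the 669 ± 44.1 FPKM of glutamine synthetase (Glul), and above the 0.901 ± 0.114 FPKM of nestin (Nes), another filament gene.

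During depletion Gfap was higher from the first time sampled. The DEP2 mice had 23.1, 18.1, 18.4 and 20.7 CPM, and the mean of 20.1 ± 2.33 CPM was 1.77 times that of CD. The DEP5 mice had 15.1, 20.6 and 21.4 CPM, and the DEP7 mice 17.7, 17.9, 29.3 and 14.4 CPM. No value in these groups reached down to the highest CD mouse. The DEP10 mice lay close together at 18.1, 15.9, 18.2 and 16.7 CPM, as did the DEP14 mice at 21.7, 21.7, 22.2 and 19.8 CPM. Over 10 lens genes, DEP14 replicates 1 and 2 summed to 89.0 and 68.3 CPM, and replicates 3 and 4 to 20.6 and 21.6 CPM. The part of lens tissue in their Gfap level was not tested. The DEP21 mice had 14.2, 14.9, 14.7 and 22.5 CPM, the lowest mean of the depletion groups at 16.6 ± 3.95 CPM (SD, n = 4), or 1.47 times that of CD. Thus all 23 depletion mice were above all 5 CD mice, with a mean of 19.0 ± 3.61 CPM (SD). The sum over 10 genes of the pigment epithelium and ciliary body was also higher on average in some of these groups, at 26.8 CPM in DEP2, 25.7 CPM in DEP7 and 25.1 CPM in DEP14 against 16.7 ± 6.78 CPM in CD (SD, n = 5), and close to CD in DEP5 (17.0 CPM) and DEP21 (19.3 CPM), where Gfap was 1.68 and 1.47 times CD. None of these 10 genes was called in depletion against CD (1 at an unadjusted p under 0.05), and their part in the Gfap level was not tested. Of 26482 genes with reads in these groups, Gfap was the 1 gene (0.00378%) with every depletion mouse above every CD mouse, while 28 genes (0.106%), most of them microglial, had every depletion mouse below. The share for Gfap follows from how it was chosen. Within RE mice the depletion mean was 19.0 CPM against 11.1 CPM in CD, and within re mice 19.0 CPM against 11.6 CPM.

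**Figure D1:**
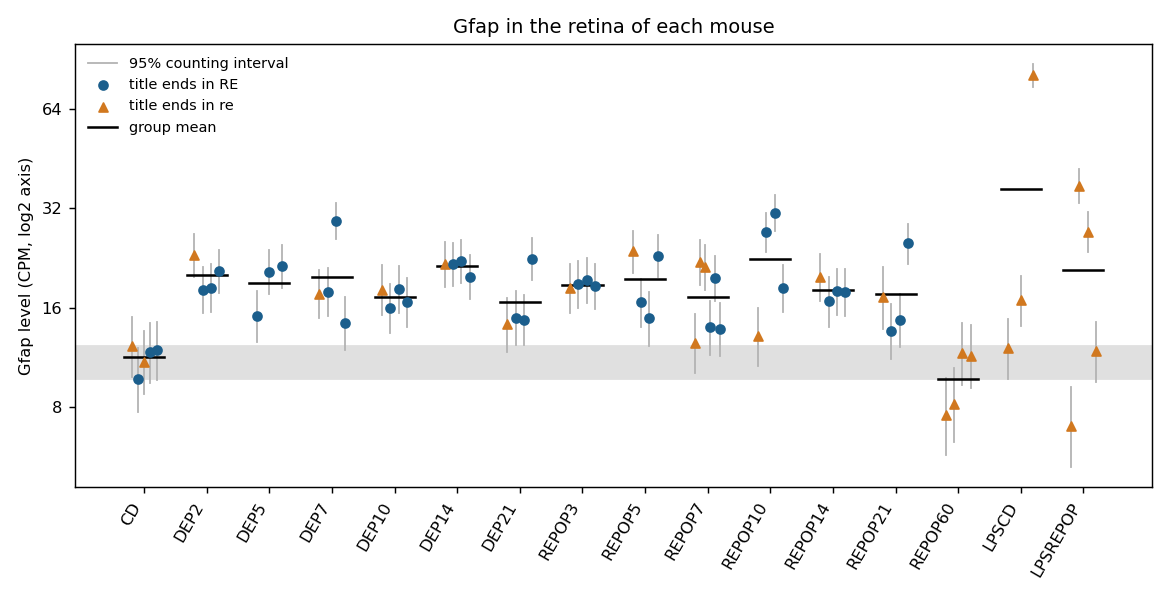
Gfap in each mouse, in CPM on a log2 axis, over the 16 groups. Circles mark titles ending in RE, triangles titles ending in re, black bars group means, grey lines 95% counting intervals and the grey band the range of the 5 CD mice (9.73 to 12.2 CPM). All DEP mice and all REPOP3 to REPOP21 mice lie above the band, the REPOP60 mice in or below it, and the LPS mice spread from 7.02 to 81.0 CPM.

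No relation of the level with the length of depletion was detected. Over the 18 RE mice of the 6 depletion groups, log2(CPM + 1) of Gfap and log2 of the day had Pearson's r = -0.09 (permutation p = 0.726, adjusted p = 0.936 over 3 day relations) and Spearman's rho = -0.05 (permutation p = 0.860), and r = -0.15 without the pair of mice farthest from the median day. In the fit of CD and the depletion groups, the DEP21 minus DEP2 difference was -0.29 on the log2 scale (SE 0.15, FDR = 1, edgeR), which did not pass the threshold of FDR under 0.05. It was -0.46 without DEP21 replicate 4, the mouse at 22.5 CPM. In that contrast 2 of 26482 genes (0.00755%) were called, both higher at DEP21.

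Return to the control diet left Gfap high for at least 21 days. The REPOP3 mice had 18.4, 18.8, 19.4 and 18.6 CPM, the REPOP5 mice 23.7, 16.6, 14.8 and 22.95 CPM. The 6 REPOP7 mice ranged from 12.5 to 22.0 CPM with a median of 16.8 CPM. The lowest of them was only just above the highest CD mouse (12.2 CPM). The REPOP10 mice were the most spread, at 13.1, 27.2, 31.1 and 18.4 CPM. The pair of high mice, replicates 2 and 3, also had the highest sums over 10 genes of the pigment epithelium and ciliary body in that group (42.7 and 58.1 CPM, against 33.0 and 14.5 CPM), and the part of this in their Gfap level was not tested. The REPOP14 mice had 19.8, 16.7, 17.96 and 17.8 CPM, and the REPOP21 mice 17.2, 13.6, 14.7 and 25.1 CPM. All 26 mice of REPOP3 to REPOP21 were above all CD mice, with a mean of 18.8 ± 4.53 CPM (SD). Of 26423 genes Gfap was again the 1 gene (0.00378%) with every such mouse higher, while 3 genes (0.0114%) had every such mouse lower. This comparison shares its CD mice with that of depletion, and it is no separate support.

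In REPOP60 mice Gfap was back at the level of CD or below it. The 4 mice had 7.58, 8.19, 11.6 and 11.4 CPM, a mean of 9.71 ± 2.13 CPM (SD), or 0.859 times that of CD. None of them reached the lowest of the 26 mice of REPOP3 to REPOP21. Of 26737 genes, 27 (0.101%) had every REPOP60 mouse below every REPOP3 to REPOP21 mouse, Gfap among them, and 26 (0.0972%) had every one above. All REPOP60 titles end in re, so the comparison within that suffix matters: the 8 re mice of REPOP3 to REPOP21 had 12.5 to 23.7 CPM, against 7.58 to 11.6 CPM in REPOP60, a difference in mean log2(CPM + 1) of -0.86. The comparison was made after this separation was seen, so no test is given.

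Repopulation time was tested among repopulation mice alone. The mean of REPOP14, REPOP21 and REPOP60 against that of REPOP3, REPOP5 and REPOP7 differed by -0.34 on the log2 scale (SE 0.12, FDR = 0.805, edgeR), short of the threshold, which 50 of 26737 genes (0.187%) passed, 49 of them higher. The call turned on the filter on low counts: without the filter the difference was the same and FDR was 0.00123. The late groups were split after the separation of REPOP60 was seen, so the split is given as a description with no call. In the same fit REPOP14 and REPOP21 differed from the early groups by -0.05 (SE 0.13) and REPOP60 by -0.93 (SE 0.20), the latter with -1.03 (without REPOP60 replicate 3) to -0.83 (without REPOP60 replicate 1) over fits that left out a mouse. Within re mice the REPOP60 minus early difference was -0.93 in mean log2(CPM + 1) (n = 4 and 5), again with no overlap. Within re mice late minus early was -0.64 (exact permutation p = 0.0455, n = 6 and 5), where 4 of the 6 late mice are REPOP60. That p-value is no separate support for the separation of REPOP60 already seen. Within RE mice, which hold no REPOP60, late minus early was -0.01 (exact permutation p = 0.969, n = 6 and 9).

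The relation with the day of repopulation rested on REPOP60 as well. Over the 12 re mice, Pearson's r was -0.78 (permutation p = 0.00433, adjusted p = 0.013 over 3 relations) and Spearman's rho -0.80 (permutation p = 0.00325). These are the same mice in which the separation of REPOP60 was seen, so these p-values are no separate support for it. Without the pair of mice farthest from the median day r was -0.66, but without all 4 REPOP60 mice it was -0.21 over 8 mice (exact permutation p = 0.608). Over the 18 RE mice of REPOP3 to REPOP21 r was -0.02 (permutation p = 0.936) and rho -0.17 (permutation p = 0.497).

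One label limits the REPOP60 result. The number in the title starts with 2 in all re depletion mice and in all re mice of REPOP3 to REPOP21 but 1, and with 0 or 1 in REPOP60 mice. The labels do not say what the number marks. The re mouse of REPOP7 whose number starts with 1 had 21.2 CPM, against 7.58 and 8.19 CPM in the REPOP60 mice that share this start. The control that shares the start 0 with the other REPOP60 mice (11.6 and 11.4 CPM) had 11.0 CPM. The re control whose number starts with 2 had 12.2 CPM. Apart from these mice, REPOP60 and the title number cannot be told apart.

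Gfap and microglial genes did not move as mirror images. A list of 20 microglia genes (Cx3cr1, P2ry12, Tmem119, the C1q genes, Csf1r and others) summed to 80.4 ± 8.55 CPM in CD (SD, n = 5). The sum was 37.7% of CD at DEP2, where Gfap was at 177%, and 34.0% at DEP14, where 10 of the 20 genes had no read in any mouse and Gfap was at 189%. Cx3cr1, the fractalkine receptor of microglia, fell from 3.94 CPM in CD to 0.0478 CPM over the 23 depletion mice. Of the 20 genes, 19 were called lower in depletion against CD, where 0.223% of all genes were called, 0.215% lower and 0.00755% higher. At REPOP14 the sum had returned to 78.9% of CD and at REPOP21 to 82.4%, while Gfap stood at 160% and 156%. At REPOP60 the sum was 87.1% of CD and Gfap 85.9%. The lowest group mean of the sum was 33.2% of CD, at DEP5, so its percentages are not counted from an empty level. Single genes had returned to differing degrees at REPOP14. Cx3cr1 was at 1.10 to 2.25 CPM (1.89 to 6.95 CPM in CD). P2ry12 was at 0.378 to 0.531 CPM (0.937 to 2.93 CPM in CD), and C1qa at 1.64 to 3.66 CPM (2.77 to 4.28 CPM in CD).

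**Figure D2:**
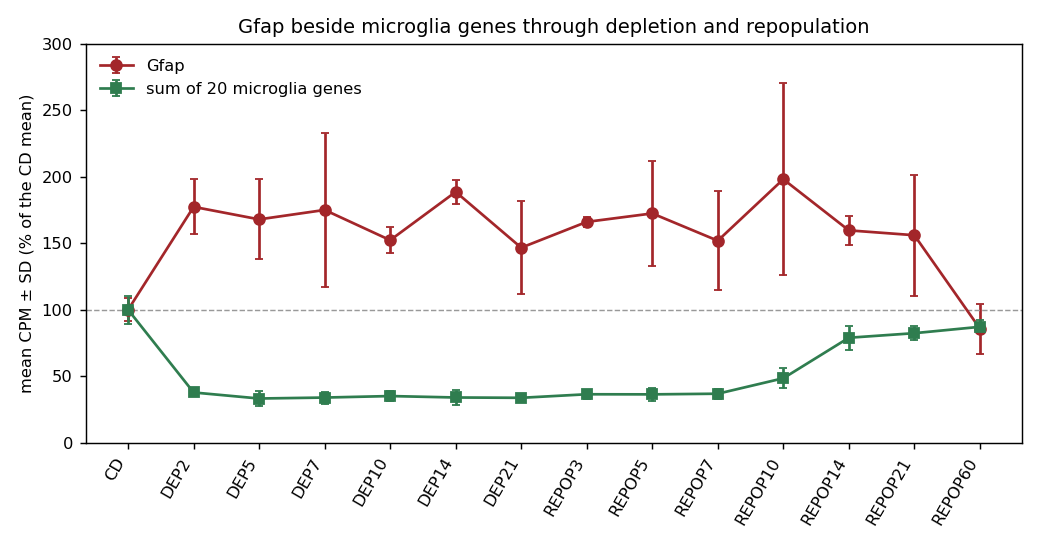
Mean Gfap (circles) and mean sum of 20 microglia genes (squares) in each group without LPS, as a percentage of the CD mean, with SD over mice as error bars. The microglial sum is lowest at DEP5, at 33.2% of CD, and back to 78.9% at REPOP14, still below CD. Gfap is at 156% at REPOP21 and at 85.9% at REPOP60.

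Between mice of 1 phase and suffix, no relation of Gfap with the microglial sum was detected. These relations were computed after the data were seen. Over the 18 RE depletion mice r was -0.06 (permutation p = 0.820, rho = 0.01), over the 18 RE repopulation mice -0.01 (permutation p = 0.953, rho = -0.05), and over the 8 re mice of REPOP3 to REPOP21 0.01 (exact permutation p = 0.983, rho = -0.05). Over the 3 relations the adjusted p was 0.983 for each.

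LPS gave the highest single level and the widest spread. The LPSCD mice had 12.04, 16.8 and 81.0 CPM, and the LPSREPOP mice 7.02, 37.4, 27.2 and 11.8 CPM. In each group mice within or below the CD range stood beside mice far above it, so both overlapped CD, and LPSREPOP also overlapped REPOP60. The LPSCD mean of 36.6 ± 38.5 CPM (SD, n = 3), 3.24 times that of CD, had an SD larger than itself because of replicate 3. LPSREPOP had 20.9 ± 13.99 CPM (SD, n = 4).

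Against REPOP60, Gfap was higher in LPSREPOP by 1.08 on the log2 scale (SE 0.29, FDR = 0.041, edgeR), 1 of 466 genes called higher among 24927 (1.87%). The labels do not give the repopulation time of LPSREPOP, whose mean of 20.9 CPM was near those of REPOP14 (18.1 CPM) and REPOP21 (17.7 CPM) without LPS, so LPS and repopulation time cannot be told apart in this difference. The call was also fragile. It was kept without LPSREPOP replicate 1 or 4 and lost without any other mouse, with 0.65 without LPSREPOP replicate 2 as the smallest difference and 1.36 without LPSREPOP replicate 1 as the largest. It was also lost in DESeq2 (FDR = 0.391), and a two-sided exact permutation test of mean log2(CPM + 1) gave p = 0.286 (n = 4 and 4). Among mice whose title number starts with 1, LPSREPOP had 37.4 and 27.2 CPM against 7.58 and 8.19 CPM in REPOP60, while among those that start with 0, LPSREPOP had 7.02 and 11.8 CPM against 11.6 and 11.4 CPM. The groups were separate among the former mice and overlapped among the latter.

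LPSREPOP and LPSCD, LPS after and without an earlier depletion, overlapped in Gfap. The difference was -0.83 on the log2 scale (SE 0.57, FDR = 0.653, edgeR; exact permutation p = 0.571, n = 4 and 3), and it turned to 0.52 without LPSCD replicate 3. In this contrast edgeR called 0 of 24500 genes, with 1973 (8.05%) at an unadjusted p under 0.05.

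The order of the 16 group means, from low to high, was REPOP60, CD, DEP21, REPOP7, DEP10, REPOP21, REPOP14, REPOP3, DEP5, REPOP5, DEP7, DEP2, LPSREPOP, DEP14, REPOP10 and LPSCD. The single step between neighbours that was larger than the larger of their SDs, and across which their ranges did not overlap, was that from CD to DEP21, 5.28 CPM. The neighbours in every other step did not differ beyond their spread. The deposited FPKM values gave much the same picture: their Spearman correlation with CPM was 0.964 over 65 mice, and 22 of 23 depletion mice and 24 of 26 mice of REPOP3 to REPOP21 were above the highest CD mouse (4.45 FPKM).

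Other glial genes did not share the rise of Gfap in depletion to a degree that passed the test. Of 117 genes in 9 lists (filament partners, Müller glia, astrocytes, 3 kinds of reactive astrocyte genes, and ligands, receptors and kinases or factors known to act on Gfap), 114 were tested and 0 were called against CD by edgeR or DESeq2, with 12 at an unadjusted p under 0.05 (5.88% of all genes), 10 of them higher and 2 lower. Their median log2 fold change was 0.03, against -0.01 over all genes tested. Without the filter on low counts, 2 genes of the lists were called. Vim was at 93.7 ± 6.87 CPM over the 23 depletion mice against 89.5 ± 2.74 CPM in CD (SD, n = 5), with a log2 fold change of 0.07 (SE 0.05, FDR = 0.892, edgeR). Glul, the glutamine synthetase of Müller glia, had a log2 fold change of -0.04 (SE 0.05, FDR = 0.956, edgeR), Aqp4 -0.02 and Nes -0.05. The 15 astrocyte genes had a median of 0.03 and ran from -0.53 (Gjb6) to 1.10 (Cd38), with Pax2 at 0.49 (SE 0.29), Gja1 at 0.49 (SE 0.38), Aldh1l1 at 0.03 and Ndrg2 at -0.10. The median was 0.26 over 11 ligand genes, 0.01 over 12 receptors and 0.05 over 15 kinases and factors. In these 3 lists the genes at an unadjusted p under 0.05, none past the threshold, were Edn2 (0.54), Socs3 (0.40), Fgf2 (0.29), Cebpd (0.28), Osmr (0.26) and Stat3 (0.13) on the higher side and Tgfb1 (-0.48) and Il6ra (-1.33) on the lower. Lif was at 0.42 (SE 0.37, FDR = 0.910, edgeR).

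With the filter on low counts, the lists gave no called gene in repopulation either. In early repopulation against CD, late repopulation against CD and late against early repopulation, 0 of 112 genes were called by edgeR in each, with 5, 4 and 8 at an unadjusted p under 0.05. Over all genes the shares called were 0.146%, 0% and 0.187%, and 6.23%, 6.9% and 4.67% had an unadjusted p under 0.05. Without the filter, a gene of the lists was called in early repopulation against CD, and likewise in late against early repopulation. Of the 20 microglia genes, 18 were lower early against CD (0.138% of all genes), 0 were called late against CD, and 18 were higher late against early (0.183% of all genes). Myelin genes mark the optic nerve, whose astrocytes also hold Gfap, and the part of such tissue in the Gfap values was not tested. Mbp, of the myelin sheath, was at 39.1 ± 4.0 CPM in CD, 37.2 ± 2.86 CPM over the depletion mice, 37.7 ± 2.5 CPM over REPOP3 to REPOP21 and 43.3 ± 2.67 CPM in REPOP60 (SD). The sum over 12 myelin and oligodendrocyte genes was 74.5 ± 7.94 CPM in CD and lay between 69.6 and 80.9 CPM in the group means of depletion and repopulation, with Mbp as its most abundant gene.

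The glial lists differed between LPSREPOP and REPOP60, a contrast in which LPS and repopulation time cannot be told apart. LPSCD against CD compared mice without an earlier depletion. All LPSCD titles end in re, so with the suffix term its control level rested on the 2 re CD mice. In this contrast 0 of 113 list genes were called by edgeR. This count ran from 0 to 32 over fits that left out a mouse. It also moved with the filter on low counts and the terms of the fit. In LPSREPOP against REPOP60, 25 of 113 tested list genes were called, 22 higher and 3 lower (22.1%, against 2.92% of 24927 genes, 1.87% higher and 1.05% lower), and their median log2 fold change was 0.20, against -0.01 over all genes. With a mouse left out, the number called was 13 (without REPOP60 replicate 4) to 36 (without LPSREPOP replicate 4). Of the 11 genes shared by reactive astrocytes 5 were higher (list median 0.95), led by Serpina3n, a protease inhibitor (3.69, SE 0.47, FDR = 2.12e-05, edgeR), Lcn2, an iron-siderophore carrier of the acute phase (3.61, SE 0.49, FDR = 4.1e-05), and Steap4, a metalloreductase (3.56, SE 0.64, FDR = 0.00125). Of 11 genes of the LPS type of reactive astrocyte 3 were higher, Serping1 (1.57), Fkbp5 (0.85) and H2-D1 (0.65), and of 11 tested of the ischaemia type 0 were called. Of 15 astrocyte genes 4 were higher, among them Gja1, the connexin of astrocyte gap junctions (1.83), Aldh1l1 (1.07) and Ndrg2 (0.45).

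Among the filament partners Vim rose by 0.74 on the log2 scale (SE 0.07, FDR = 1.46e-07, edgeR), while the neurofilament genes Nefh and Nefm fell by 0.32 and 0.20. The Müller glia list had 4 genes higher, among them Hes1 (0.77), Clu (0.56) and Prdx6 (0.32), and 1 lower, Rlbp1, which carries retinoids for the visual cycle (-0.57, SE 0.10, FDR = 0.00112). Of 10 tested ligand genes 0 were called, and of 12 receptors 2 were, Tgfbr2 (0.77) and Fgfr1 (0.38). Of the 15 kinases and factors 4 were higher, Cebpd (0.96, SE 0.26, FDR = 0.0368), Socs3 (0.89, SE 0.22, FDR = 0.0253), Hes1 (0.77) and Stat3 (0.30, SE 0.08, FDR = 0.0428). The calls of Vim, Serpina3n, Lcn2 and Serping1 were kept in all 8 fits that left out a mouse, those of Steap4 and Gja1 in 7 (lost without REPOP60 replicate 4), whereas those of Socs3 were kept in 2 and those of Stat3 and Cebpd in 1. Endothelial genes moved in the same contrast, 5 of 10 higher with Cldn5 of tight junctions among them, and 7 of 20 microglia genes were higher. Blood genes were called both ways, with S100a8 (6.21) and S100a9 (3.92) higher and Hbb-bs (-2.89) lower. Cryab of the lens list (0.48) and Opn1mw of photoreceptors (0.32) were higher, and Arr3 of photoreceptors (-0.56) was lower. Their part in the glial values was not tested.

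**Figure D3:**
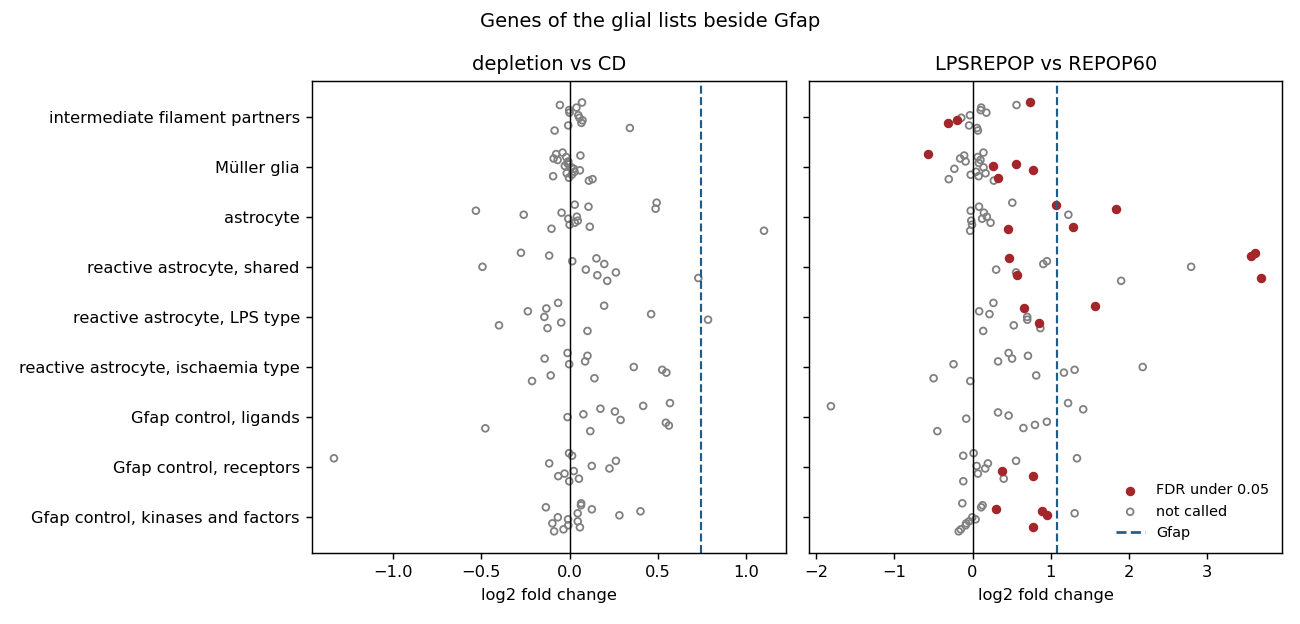
Log2 fold changes of the genes of the 9 glial lists in depletion against CD (left) and LPSREPOP against REPOP60 (right), 1 circle a gene, filled where FDR was under 0.05. The dashed line is Gfap. No circle is filled in depletion, and circles of 25 genes are in LPSREPOP.

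The LPS mice differed widely among themselves in several of these genes. Serpina3n was at 10.8, 37.6 and 177 CPM in the LPSCD mice and at 22.9, 73.3, 57.3 and 6.04 CPM in the LPSREPOP mice, in the order of replicates used for Gfap, against 1.88 to 3.57 CPM in REPOP60. All 7 LPS mice were above every CD and every REPOP60 mouse. Vim was at 123, 122 and 229 CPM in LPSCD and at 138, 165, 167 and 127 CPM in LPSREPOP. These values were also above all CD and REPOP60 mice, whose highest values were 93.0 and 90.7 CPM. Unlike Gfap, then, Vim and Serpina3n stood above CD and REPOP60 in every LPS mouse. The share of all genes with such a separation was not counted, so this describes chosen genes only. The LPSREPOP mouse at 6.04 CPM of Serpina3n was near the mean of REPOP3 to REPOP21 without LPS, given below. Stat3 was at 91.7, 129 and 304 CPM in LPSCD and at 83.1, 113, 103 and 78.7 CPM in LPSREPOP, and Glul, in the opposite direction, was lowest in LPSCD replicate 3 (1260 CPM), the mouse with the highest Gfap. Over the 7 LPS mice Spearman's rho with Gfap was 0.964 for Cebpd, 0.929 for Socs3, 0.893 for Serpina3n and Lcn2, 0.857 for Stat3, 0.643 for Nes, 0.607 for Vim, 0.464 for C1qa, 0.143 for Lif, -0.321 for Cx3cr1, -0.464 for Aqp4 and -0.821 for Glul, a description of 7 libraries of which LPSCD replicate 3 was the highest for most of the genes with a high rho.

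**Figure D4:**
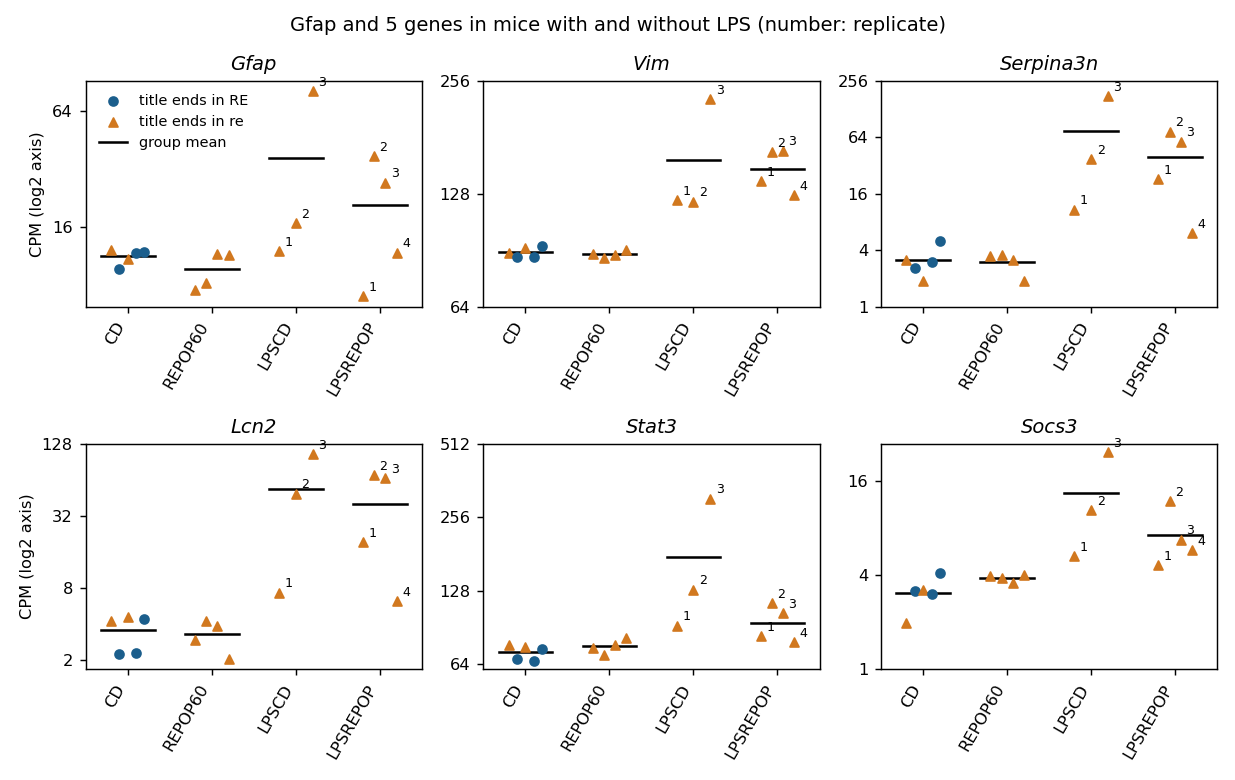
Gfap and 5 other genes in each mouse of CD, REPOP60, LPSCD and LPSREPOP, in CPM on log2 axes, with black bars for group means and the replicate number beside each LPS mouse. Gfap of LPSCD replicate 1 and LPSREPOP replicates 1 and 4 lies within or below the CD range, while Vim, Serpina3n and Lcn2 lie above CD and REPOP60 in all 7 LPS mice.

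LPSCD replicate 3 also had the highest sums in its group of lens genes (66.0 CPM against 32.7 and 36.3 CPM), myelin genes (106 CPM against 79.5 and 77.3 CPM) and pigment epithelium genes (31.3 CPM against 11.2 and 11.9 CPM). Their part in its Gfap level was not tested. In LPSCD against CD, 0 of 113 glial genes were called by edgeR, with 46 at an unadjusted p under 0.05 and 6 called by DESeq2, where edgeR called 0.0466% of all genes and 10.5% had an unadjusted p under 0.05. Without LPSCD replicate 1 the count was 32. The count for LPSCD thus depended on which of the 3 mice entered, and it also moved with the filter on low counts and the terms of the fit.

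The genes whose level followed Gfap most closely were ranked by Pearson correlation of log2(CPM + 1), less the suffix effect, over 12346 genes with a mean of at least 5 CPM. The mice share libraries and depth between genes, so these values are descriptions. Over the 58 mice without LPS the closest were C4b, complement component 4 (r = 0.70), Serpina3n (0.64), A2m, a broad protease inhibitor (0.62), Pcolce, an enhancer of collagen processing (0.59), Lrrc2 (0.54) and Osmr, the receptor of oncostatin M (0.53). Over all 65 mice they were Cebpd, a transcription factor (0.68), A2m (0.67), C4b (0.67), Osmr (0.64), Lrrc2 (0.62) and Cnn3, an actin-binding calponin (0.62). Vim ranked 31 and 60, and Stat3 64 and 8, in these orders.

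C4b and Serpina3n were the closest to Gfap over the 58 mice, so a pattern like that of Gfap in these mice follows from their choice. C4b was at 4.67 ± 1.87 CPM in CD, 7.0 ± 2.26 CPM over depletion, 6.99 ± 2.17 CPM over REPOP3 to REPOP21 and 4.69 ± 0.649 CPM in REPOP60 (SD), and 13 of 23 depletion mice were above the highest CD mouse. Serpina3n was at 3.14 ± 1.19, 5.35 ± 1.95, 5.40 ± 2.37 and 3.02 ± 0.776 CPM in the same groups (SD), and 12 of 23 depletion mice were above CD. In depletion against CD the log2 fold change was 0.73 for Serpina3n (SE 0.22, FDR = 0.376, edgeR) and 0.65 for C4b (SE 0.16, FDR = 0.091), neither past the threshold, and both genes shared the CD mice with Gfap. Lcn2, with a rise under LPS much like that of Serpina3n, was at 3.52 ± 1.17 CPM in CD, 2.78 ± 0.768 CPM over depletion and 2.87 ± 1.31 CPM over REPOP3 to REPOP21 (SD), and ranked 5542 of 12346 in likeness over the 58 mice.

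**Figure D5:**
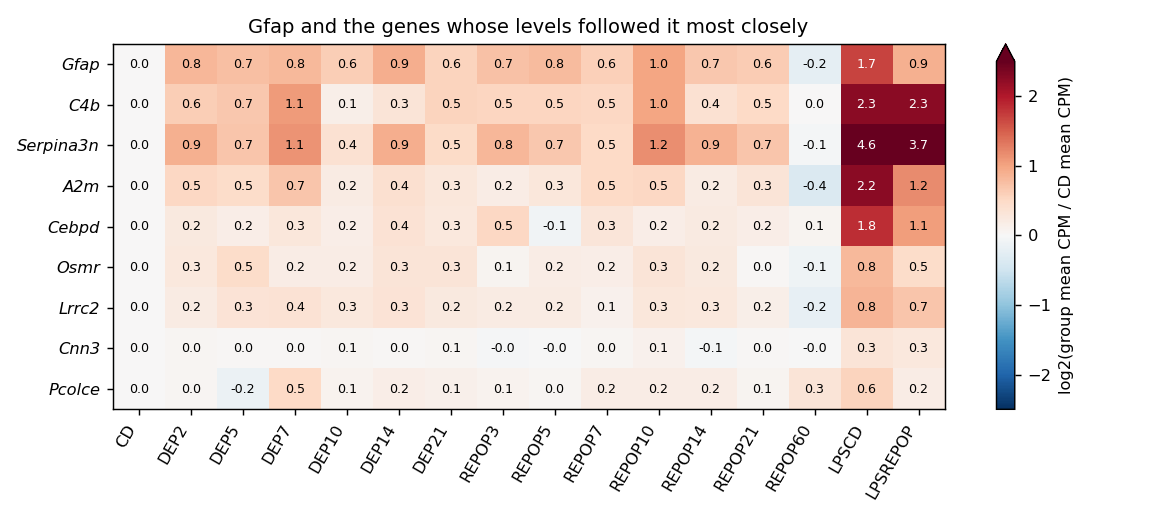
Log2 ratio of each group mean to the CD mean, in CPM, for Gfap and the 8 genes nearest to it in either order of likeness. Gfap, C4b and Serpina3n are above CD in every group from DEP2 to REPOP21 and near or below it in REPOP60, and Serpina3n and C4b exceed Gfap in both LPS groups.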

How the data were processed

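Per the labels, polyadenylated RNA of whole retina was purified and sequenced on BGISEQ-500. As the authors deposited them, the count table holds raw read counts per gene (HTSeq after HISAT2 alignment to mm10) and the FPKM table holds StringTie estimates; versions are not given in the sources used here. CPM was each count scaled by the counted reads of its library, with no pseudocount unless log2(CPM + 1) is named. Counts were tested with edgeR 4.0.16 (R 4.3.3, quasi-likelihood F test, TMM) on genes with at least 1 read in at least 0.5 of the mice of a group, with the title suffix as covariate where groups held both, since the study names an additive term for batch but no batch. FDR is Benjamini-Hochberg over all genes tested, SE is the log2 fold change over the root of F, and a call is FDR under 0.05. DESeq2 1.42.0 was an alternative. Other tests were exact permutations or, for correlations over 10 or more mice, 100000 resamples (numpy 2.4.6).

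Gfap, the gene lists and tests were chosen with earlier results of these data known. The split of REPOP60 from REPOP14 and REPOP21, the exact tests of LPS, the relation with microglia and the title-number values were added after the values were seen. Named genes were Gfap, a fixed set (Vim, Nes, Glul, Aqp4, Stat3, Socs3, Lif, Serpina3n, Lcn2, Cx3cr1, P2ry12, C1qa and Mbp), at most 4 called genes of largest change per list and comparison, and the 6 genes most like Gfap over 65 and over 58 mice. Pax2, Gjb6, Cd38, Edn2, Fgf2, Il6ra, Tgfb1 and Gm26668, and several named list genes in depletion, lie outside this rule and were chosen after their values were seen. A few genes that the rule names are not reported here. Sequences are from RefSeq (GRCm38.p6), and 10 of the 13 genes searched had a window. The fitting step was tested on simulated counts. Replicates are different mice, and intervals cover counting error only.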

Additional observations from a re-analysis of the deposited data

Results flagged for a closer look

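In DEP21, the Gfap level of replicate 4 (22.5 CPM) stood apart from the other 3 mice, of which the nearest had 14.9 CPM. The gap was 0.918 of the range of the group. It was the 1 such mouse among 28 checks (CPM and FPKM in each group of 4 to 6 mice), and chance alone flags about 1 check in 20. The mouse had a title ending in RE, like replicates 2 and 3. Without it the DEP21 minus DEP2 difference was -0.46 on the log2 scale, against -0.29 with it.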

How the results depend on the processing

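Depth limits the single values, since at 53 reads the counting interval reached about 27.9% on either side. Late minus early repopulation passed without the low-count filter (-0.34, FDR = 0.00123) and was -0.43 to -0.29 over the 30 mice left out. REPOP14 and REPOP21 minus early turned to 0.0572 with the replicate block and ranged from -0.17 to 0.00497 over mice left out. REPOP60 minus early ranged from -1.03 to -0.83. REPOP60 minus REPOP14 and REPOP21 (-0.89) was -1.37 with the replicate block and -0.88 without the filter, and ranged from -0.996 to -0.782. LPSREPOP minus REPOP60 was 1.08 in DESeq2 but not past the threshold, and 0.65 to 1.36 over mice left out. LPSREPOP minus LPSCD ranged from -1.26 to 0.52, and DEP21 minus DEP2 from -0.46 to -0.20. The cause of these changes was not tested.

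Called glial genes without the filter were 2 in depletion, 1 in early repopulation, 1 late against early and 32 in LPSCD against CD. The last count was also 23 with group as the only term, 1 with the replicate block, 6 in DESeq2 and 0 to 32 over mice left out. In LPSREPOP against REPOP60 it was 7 by the rule of the study (an FDR below 0.01 with at least a doubling or halving) and 13 to 36 over mice left out, and in LPSREPOP against LPSCD 0 to 8. It stayed 0 over mice left out in the depletion and repopulation contrasts. The shares of all genes called under these settings are not given, here or above. These counts thus describe how the calls moved and not a response particular to glial genes.

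Same-numbered replicates are different mice, and every same-numbered pair correlated above 0.1 in 8 of 26 contrasts as measured, but in 0 of 26 once the title suffix, which many same-numbered mice share, was removed, so the numbers were not taken to pair mice. With the replicate block, LPSREPOP minus REPOP60 kept its call for Gfap (FDR = 6.15e-05) and REPOP60 minus early became -1.31. Of the values of single genes and levels under settings that kept all mice, 681 kept their direction and call, 25 lost the call, and 1, the REPOP3 level, went from 1.66 times CD by CPM to 1.6 by FPKM, a step larger than the narrow spread of that group.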
